A study of Mus musculus with 18 samples.

Results

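The genes described here encode the heat shock proteins and their DnaJ partners, general protein-folding machinery found mainly in the cytosol, nucleus and mitochondria. They were taken as all probe sets whose platform annotation gives a single gene symbol starting with Hsp plus a, b, d, e, h or a digit, or with Dnaj. Hspa5, Hsp90b1, Dnajb9, Dnajb11 and Dnajc3, which serve the endoplasmic reticulum, were left out, while some others of that compartment, such as Dnajc10, Dnajb14 and Hspa13, were kept. The choice gave 64 genes, read by 143 of 36701 probe sets. Of these, 101 probe sets for 57 genes reached a signal of 60 on at least 2 of 6 arrays and were tested, among 23285 tested in all. A probe set is a set of oligonucleotides on the array that together read one transcript. By array type, U74A held 56 of the probe sets (40 tested), U74B 50 (32 tested) and U74C 37 (29 tested).

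The study compared 3 populations of mouse spleen cells on Affymetrix arrays. IKDC are interferon-producing killer dendritic cells, and PDC are plasmacytoid dendritic cells, known for type I interferon. The submitters' control was cDC, the conventional dendritic cells that present antigen to T cells. Each population had 2 samples, prepared separately, and each sample was hybridised to the U74A, U74B and U74C arrays after 2 rounds of RNA amplification. Mouse strain, age, genotype, treatment, the sorting of the cells and whether the samples came from separate animals are not given in the sources used here. P-values therefore measure the spread between these samples, which may in part be technical, and the 3 comparisons share samples.

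Chaperones of the HSP70 family bind short hydrophobic stretches of unfolded proteins and release them on an ATP cycle. DnaJ proteins, also called HSP40s, deliver clients to HSP70 and start its ATP hydrolysis, and the HSP110 proteins release the ADP. HSP90 takes over part-folded kinases and receptors, HSP60 with its lid HSP10 folds proteins in the mitochondrial matrix, and small heat shock proteins hold unfolded proteins against aggregation. Some members are made all the time, whereas Hspa1a, Hspa1b, Hsph1, Dnajb1 and others are raised by the heat shock factor Hsf1 within minutes to hours of heat or other protein damage.

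Median signals per array lay between 51.7 and 87.3. The correlation over probe sets was 0.785 to 0.953 within a population and 0.707 to 0.817 between populations, as a description, since probe sets are no replicates. The lineage markers told the populations apart (limma, adjusted p under 0.05). All 8 tested NK markers were higher in IKDC than in cDC and than in PDC. All 8 tested PDC markers were higher in PDC than in both. Of 10 cDC markers, 8 were lower in IKDC than in cDC and 5 were lower in PDC than in cDC. Between IKDC and PDC, 5 of the 10 were lower and 1 was higher in IKDC. Markers of other cells passed too: 2 of 5 T cell markers were higher in IKDC than in cDC. Of 6 B cell markers 1, Ighm, was higher in PDC than in cDC. The U74A ratio of the 3' to the 5' Gapdh control, a sign of RNA or cRNA length, was 3.34 and 3.58 in IKDC, 4.74 and 4.13 in cDC, and 6.0 and 3.19 in PDC. In bulk samples such as these, fewer cells of a type and less RNA per cell cannot be told apart.

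Few chaperone probe sets passed the test between the 3 populations, and few of all probe sets did. With so few samples, a probe set that did not pass is not shown to be equal between populations. Hspa8, the constitutive cytosolic HSP70, gave signals of 2344.9 and 2038.4 in IKDC, 1961.2 and 1966.3 in cDC, and 2112.9 and 1611.6 in PDC. In IKDC against cDC, 2 of 101 probe sets passed (limma, adjusted p under 0.05), 1 higher and 1 lower, or 1.98%, where 5.6% of all tested probe sets passed (2.68% higher and 2.92% lower). An unadjusted limma p under 0.05 was found for 17, a share of 16.8% beside 18.9% of all. In PDC against cDC none of the 101 passed, where 3.65% of all did (1.73% higher and 1.92% lower), and 15 had an unadjusted limma p under 0.05, a share of 14.9% among the members and 14.9% among all probe sets. In IKDC against PDC, 4 passed, 2 higher and 2 lower, or 3.96% against 4.45% of all (2.06% higher and 2.39% lower), and 14 had an unadjusted limma p under 0.05, a share of 13.9% beside 14.5% of all. In this fit of all 6 samples the members' shares were at or under those of the arrays as a whole. Leaving out single samples moved the counts of the members and of the whole arrays. IKDC against cDC gave 1 without IKDC replicate 1 or cDC replicate 1 (0.99%, beside 2.55% and 2.65% of all) and 3 (2.97%) without any single one of the other 4 samples. The 3 stood beside 2.57% of all without IKDC replicate 2 and 2.62% without cDC replicate 2, and beside 7.11% and 7.1% without PDC replicate 1 or 2. PDC against cDC gave 1 (0.99%) without IKDC replicate 1, IKDC replicate 2 or PDC replicate 2, beside 3.05%, 3.09% and 2.54% of all. IKDC against PDC gave 2 (1.98%) without IKDC replicate 1, beside 2.17% of all, and 3 (2.97%) without any other sample, beside 2.12% without IKDC replicate 2 and 3.41% to 3.73% without a cDC or PDC sample. The members' share was thus above that of the arrays in 3 of these fits: IKDC against cDC without IKDC replicate 2 or cDC replicate 2, and IKDC against PDC without IKDC replicate 2.

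The sizes of the differences were compared in the same way. The median log2 difference of the members was 0.18 in IKDC against cDC and 0.17 in PDC against cDC, with -0.01 over all tested probe sets in each, and it was -0.08 in IKDC against PDC, with -0.02 over all. The log2 difference was above 0 for 65 members and below 0 for 36 in IKDC against cDC, for 59 and 42 in PDC against cDC, and for 45 and 56 in IKDC against PDC. The like counts over all tested probe sets were not computed, and the 101 members come from 57 genes. These counts therefore do not set the chaperones apart from the arrays as a whole. Differences beyond 1 on the log2 scale were found for 17 members (16.8%, against 19.2% of all) in IKDC against cDC, 15 (14.9%, against 15.4%) in PDC against cDC and 20 (19.8%, against 15.3%) in IKDC against PDC, where the members' share was above that of all. Both samples of 1 population lay outside the range of the other for 47 members in IKDC against cDC (46.5%, against 51.6% of all), for 40 in PDC against cDC (39.6%, against 41.3%) and for 38 in IKDC against PDC (37.6%, against 43.7%). The smallest difference that passed the test anywhere on the arrays was 0.95 on the log2 scale in IKDC against cDC, 1.02 in PDC against cDC and 0.92 in IKDC against PDC, so with 2 samples per population smaller differences did not pass for any gene.

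**Figure D1:**
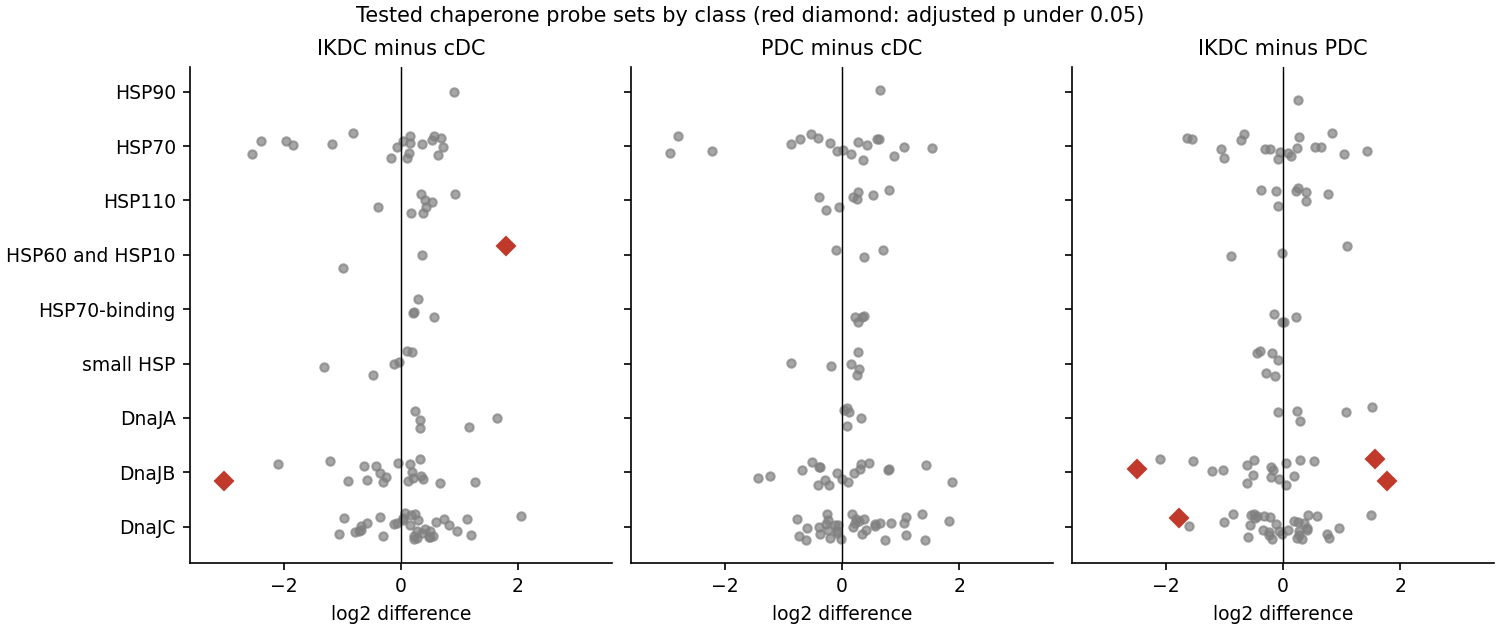
Log2 differences of the 101 tested chaperone probe sets (horizontal axis) by protein class (rows) in IKDC minus cDC, PDC minus cDC and IKDC minus PDC (panels); each point is a probe set, and red diamonds mark an adjusted p under 0.05. Most points lie within 1 of zero, with 2 diamonds in IKDC minus cDC, 0 in PDC minus cDC and 4 in IKDC minus PDC.

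The tested probe sets of Hsp90aa1 and Hspa8 had signals well above the minimum in every sample. Hsp90aa1 was the only HSP90 gene among the members, and 1 of its 3 probe sets was tested. Its untested probe sets gave at most 33.2. Hsp90aa1, the stress-raised cytosolic HSP90, gave 4311.6 and 2894.6 in IKDC, 1205.7 and 2892.0 in cDC, and 2829.9 and 3071.4 in PDC. Both IKDC samples lay above both cDC samples, though the lower IKDC sample only by a margin of a few units, and the log2 difference of 0.91 ± 0.38 (SE) did not pass (limma, adjusted p = 0.223). Without cDC replicate 2 it was 1.54 (limma, adjusted p = 0.0454), so the call turned on that sample. For Hspa8 the log2 difference was 0.15 ± 0.27 in IKDC against cDC, -0.09 ± 0.27 in PDC against cDC and 0.24 ± 0.27 in IKDC against PDC. Hspa13, an HSP70-like protein of microsomes, gave 2665.7 and 1989.3 in IKDC, 2732.9 and 1666.6 in cDC, and 2383.7 and 2389.4 in PDC with its brightest probe set, and the populations overlapped. None of its 6 tested probe sets passed in any comparison.

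The inducible HSP70 genes differed most from the constitutive ones, in that the 2 samples of a population disagreed. Hspa1b gave a signal of 68.3 in IKDC replicate 1 and 1577.4 in IKDC replicate 2. In PDC it gave 39.2 in replicate 1 and 753.7 in replicate 2. In cDC it was high in both, at 1292.8 and 1554.3. Thus replicate 1 of IKDC and of PDC lay near or under the level of 60 used as a minimum, IKDC replicate 2 lay above both cDC samples, and PDC replicate 2 lay between the low samples and cDC. Hspa1a, whose protein is nearly the same, gave 76.4 and 671.5 in IKDC, 1579.3 and 1089.9 in cDC, and 51.6 and 427.3 in PDC on U74A. Its second probe set, on U74C, gave 4.0 and 159.1 in IKDC, 393.0 and 275.2 in cDC, and 22.7 and 124.0 in PDC. All 3 probe sets were higher in replicate 2 than in replicate 1 of IKDC and of PDC. Near-identical genes such as these can share reads of a probe set, so the signals of Hspa1a and Hspa1b may not be independent.

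**Figure D2:**
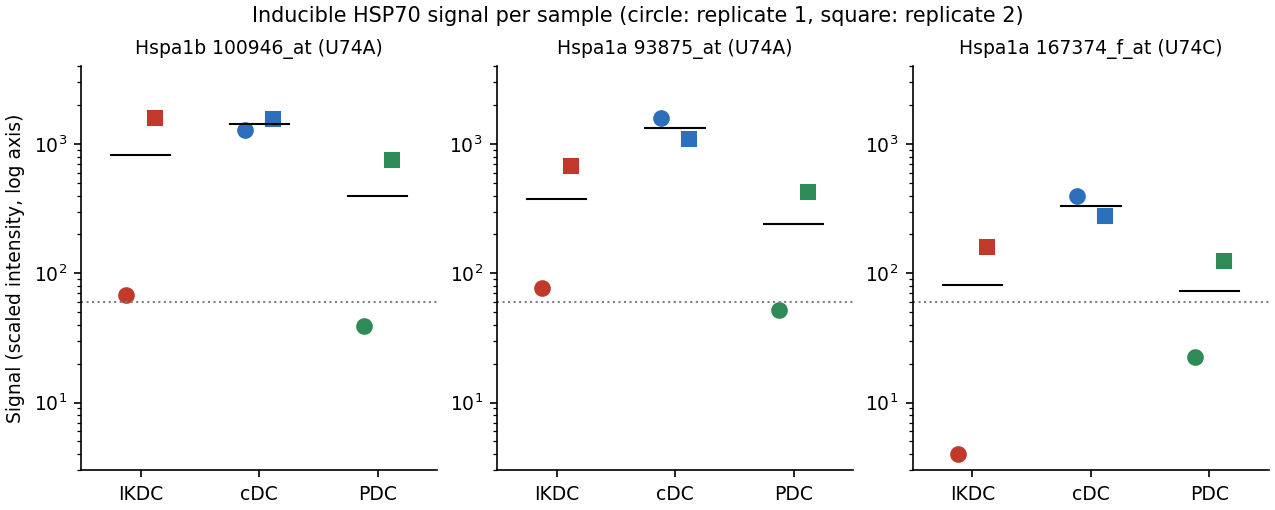
Signal (vertical log axis, scaled intensity) of the inducible HSP70 probe sets in each sample of IKDC, cDC and PDC (horizontal axis); circles are replicate 1, squares replicate 2, horizontal bars the mean of both samples and the dotted line a signal of 60. Both cDC samples are high, and replicate 1 is far under replicate 2 in IKDC and in PDC, as with 68.3 and 1577.4 for Hspa1b in IKDC.

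These gaps between samples of a population were set against those of all probe sets. Hspa1b was 23.1-fold higher in replicate 2 than in replicate 1 of IKDC, a log2 gap of 4.24 and the largest of all 7081 tested U74A probe sets there. In PDC it was 19.2-fold higher in replicate 2, a log2 gap of 3.80, again first of 7081, while in cDC the ratio was 1.20 and the gap of 0.26 stood at place 4313. Hspa1a on U74A was 8.79-fold higher in replicate 2 of IKDC (place 3) and 8.28-fold higher in replicate 2 of PDC (place 9), with a ratio of 0.690 in cDC (place 2211). The median absolute gap of all tested U74A probe sets was 0.25 in IKDC, 0.35 in cDC and 0.46 in PDC on the log2 scale. Over the chaperones as a whole, gaps were near those of the arrays: one beyond 1 was found for 18 of the 101 members in IKDC (17.8%, against 14.2% of all), 16 in cDC (15.8%, against 16.7%) and 17 in PDC (16.8%, against 20.3%).

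**Figure D3:**
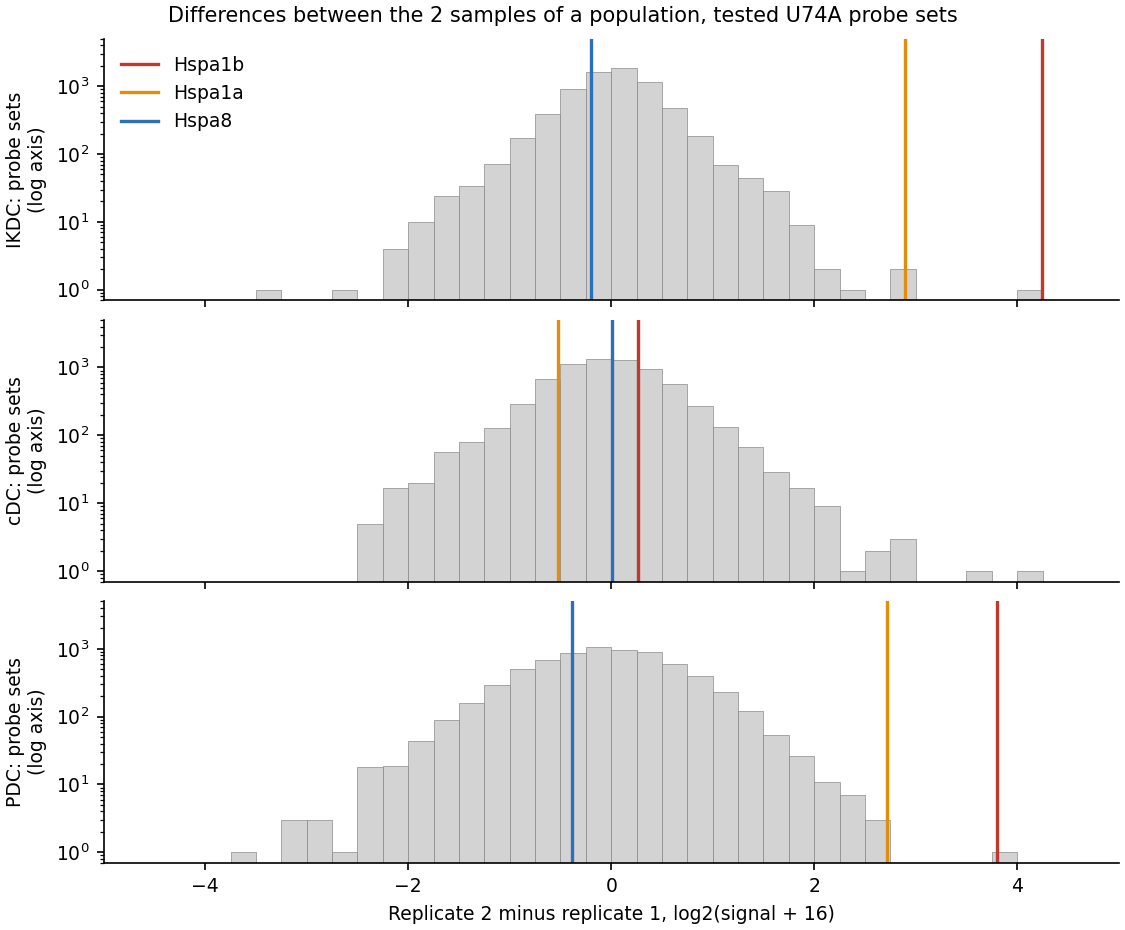
Difference between the 2 samples of a population, replicate 2 minus replicate 1 in log2(signal + 16) (horizontal axis), for all tested U74A probe sets as a histogram (vertical log axis, number of probe sets) in IKDC, cDC and PDC (panels), with Hspa1b and Hspa1a marked. Hspa1b lies at 4.24 in IKDC and 3.80 in PDC, at the right edge of both distributions, and at 0.26 in cDC.

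The differences between populations did not pass in the main fit of all 6 samples, which did not pair same-numbered samples. Hspa1b had a log2 difference of -1.97 ± 1.23 in IKDC against cDC (limma, adjusted p = 0.432), where the samples overlapped, and of -2.80 ± 1.23 in PDC against cDC (limma, adjusted p = 0.315), where they did not. Hspa1a on U74A was at -2.40 ± 0.88 in IKDC against cDC (limma, adjusted p = 0.163) and -2.94 ± 0.88 in PDC against cDC (limma, adjusted p = 0.115), and in both cases every cDC sample lay above the other population. Without IKDC replicate 2 the first of these was -3.85, and on U74C it was -4.11. The second was -4.30 without PDC replicate 2. These runs left out the sample nearer to cDC, so a larger difference followed from the choice of sample. On U74A that sample was at 671.5 in IKDC and 427.3 in PDC, with cDC at 1579.3 and 1089.9. Leaving out an IKDC sample cannot change the difference between PDC and cDC, which is taken from PDC and cDC samples alone. At -2.94, that difference passed with only PDC and cDC in the fit (limma, adjusted p = 0.0287). IKDC and PDC differed by 0.54 ± 0.88 (limma, adjusted p = 0.857).

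Immediate early genes, such as Atf3, Fos, Egr1 and Jun, also answer to stress and handling of cells, and 24 of 25 listed could be tested. The list also held Hmox1, a stress-raised gene outside that class. In IKDC, 7 of 24 (29.2%, beside 5.6% of all probe sets) were lower than in cDC, Hmox1 among them. In PDC, 11 of 24 (45.8%, beside 3.65%) were lower than in cDC. Between IKDC and PDC, 5 of 24 (20.8%, beside 4.45%) were higher in IKDC. These are calls at a limma adjusted p under 0.05, with none past the threshold in the other direction. The 7 became 2, 4 and 1 without IKDC replicate 2, cDC replicate 1 and cDC replicate 2, the 11 became 5, 3 and 6 without cDC replicate 1, cDC replicate 2 and PDC replicate 2, and the 5 became 3 without IKDC replicate 1 or PDC replicate 2. Atf3, a stress-induced transcription factor, gave 672.7 and 211.8 in IKDC, 7177.2 and 7789.5 in cDC, and 1094.6 and 144.8 in PDC. It was lower by a log2 difference of -4.24 ± 0.72 in IKDC (limma, adjusted p = 0.00476) and -4.15 ± 0.72 in PDC (limma, adjusted p = 0.00787) than in cDC. Between the samples of IKDC and of PDC, however, these genes ran opposite to Hspa1a and Hspa1b. Replicate 1 was the higher sample for 21 of 24 in IKDC, with a median gap of -0.60, and for 22 of 24 in PDC, with a median gap of -0.74, while in cDC it was higher for 8 of 24, with a median gap of 0.13. Over all tested probe sets replicate 1 was higher for 50%, 53.4% and 51%, in IKDC, PDC and cDC. Marker signals also moved with the populations. Summed signals of 8 macrophage markers were 629.2 and 710.4 in IKDC, 5783 and 6973.3 in cDC, and 2485.2 and 2819.8 in PDC, with 7 of 8 lower in IKDC and 5 of 8 lower in PDC than in cDC. Cd68 alone gave 1335.8 and 1944 of the PDC sums, above its 806.1 and 845.5 in cDC. The part of the marked cells in the HSP70 signals was not tested.

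Hspa1a and Hspa1b moved together, and their promoters are shown because they are also near copies. Promoter sequences came from RefSeq (GRCm38.p6), and 52 of the 64 genes had an entry. Each entry spans 250 bases before to 50 after a transcript start. Heat shock factor binds alternating GAA and TTC units. Both strands were searched for 3 such units in a row (GAA, TTC, GAA or TTC, GAA, TTC) and for 2 units (GAA, TTC or TTC, GAA), each with 2 bases of any kind between units, so that each match of 3 units also holds matches of 2. The 250 bases before the start are printed on the minus strand, 5′ to 3′, for Hspa1b at chr17:34959239-34959488 and Hspa1a at chr17:34972157-34972406, with matches in capitals.
Hspa1b: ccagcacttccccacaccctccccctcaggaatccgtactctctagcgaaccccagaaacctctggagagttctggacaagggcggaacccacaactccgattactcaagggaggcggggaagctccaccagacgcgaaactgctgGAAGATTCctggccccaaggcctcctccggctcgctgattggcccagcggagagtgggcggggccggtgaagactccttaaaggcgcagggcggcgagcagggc
Hspa1a: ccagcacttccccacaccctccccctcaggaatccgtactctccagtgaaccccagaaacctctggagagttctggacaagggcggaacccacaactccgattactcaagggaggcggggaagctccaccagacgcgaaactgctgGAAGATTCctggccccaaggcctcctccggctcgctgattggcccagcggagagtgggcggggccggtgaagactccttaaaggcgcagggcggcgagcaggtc
The sequences are identical at 247 of 250 bases (98.8%). Each holds 1 exact match of 2 units, GAAGATTC, starting 104 bases before the start, and no exact match of 3 units. The search allowed no mismatched base, so imperfect units, which heat shock elements can hold, were not counted. The lack of a match therefore does not show that an element is absent.

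Matches of 3 units were found for 4 of the 52 genes, namely Hspd1, Hspe1, Hsph1 and Dnajb6, and in 6 of their 68 promoter windows (8.82%), against 198 of 32851 windows in the whole table (0.603%). Matches of 2 units were found for 15 of the 52 genes and in 17 of 68 windows (25%, against 15.1% of all windows). Windows of a gene with several starts overlap, as do those of neighbouring genes, so these counts are not of independent sequences. A match is a description of the letters and says nothing of binding.

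The other HSP70 genes gave smaller signals or differences that did not pass. Hspa1l, a testis-enriched HSP70 encoded beside Hspa1a and Hspa1b, gave 19.8 and 14.1 in IKDC, 140.5 and 72.7 in cDC, and 137.7 and 52.1 in PDC. Both IKDC samples were under both samples of cDC and of PDC. The log2 difference was -1.84 ± 0.49 in IKDC against cDC (limma, adjusted p = 0.0532) and -1.64 ± 0.49 in IKDC against PDC (limma, adjusted p = 0.103). The first passed without PDC replicate 1 or 2 (limma, adjusted p = 0.0252 and 0.0206), with only the 2 populations in the fit (limma, adjusted p = 0.0249), with p-values adjusted within the array type (limma, adjusted p = 0.0306) and with a pseudocount of 1 (-2.53, limma, adjusted p = 0.0476). The second was -2.23 without PDC replicate 2 (limma, adjusted p = 0.0361). Hspa2, best known from the testis, gave 385.2 and 189.3 in IKDC, 153.1 and 206.9 in cDC, and 86.9 and 93.5 in PDC, with both PDC samples lowest and a log2 difference of 1.43 ± 0.40 in IKDC against PDC (limma, adjusted p = 0.0891). Hspa14, a ribosome-associated HSP70, gave 103.2 and 43.4 in IKDC, 153.4 and 113.6 in cDC, and 88.2 and 60.9 in PDC. The distant relatives Hspa12a and Hspa12b had signals from 58.1 to 294.2 and from 108.7 to 167.4. None of these passed in any comparison.

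The HSP110 proteins and Hspbp1, which exchange the nucleotide of HSP70, did not pass in any comparison, and neither did Hspbap1, named for its association with Hspb1. Hsph1, the heat-raised HSP110, gave 606.5 and 797.1 in IKDC, 351.8 and 366.1 in cDC, and 445.7 and 623.3 in PDC. The cDC samples were the lowest, with no overlap with either population, and the log2 difference in IKDC was 0.92 ± 0.29 (limma, adjusted p = 0.0977). Hsph1 thus had its lowest signals in cDC, where Hspa1a had its highest. Hspa4 was given by 4 tested probe sets and Hspa4l by 3, with log2 differences between -0.40 and 0.80 in all comparisons. Hspbp1 gave 472.0 and 424.8 in IKDC, 436.9 and 338.1 in cDC, and 508.7 and 402.9 in PDC with its brightest probe set.

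In the mitochondrion, Hspd1, the HSP60 chaperonin, was higher in IKDC than in cDC. It gave 2759.4 and 3120.4 in IKDC (2940 ± 255, SD, n = 2), 617.6 and 1137.0 in cDC (877 ± 367) and 962.6 and 1935.2 in PDC (1449 ± 688). Both IKDC samples lay above all 4 others, and cDC and PDC overlapped. The log2 difference was 1.79 ± 0.38 in IKDC against cDC (limma, adjusted p = 0.0165), 1.09 ± 0.38 in IKDC against PDC (limma, adjusted p = 0.167) and 0.69 ± 0.38 in PDC against cDC (limma, adjusted p = 0.449). The call against cDC ended without IKDC replicate 1, IKDC replicate 2 or cDC replicate 1, with log2 differences of 1.88, 1.70 and 1.36 (limma, adjusted p = 0.0707, 0.112 and 0.148), and without an intensity trend (limma, adjusted p = 0.0505). A second, dim Hspd1 probe set gave 22.7 and 92.1 in IKDC, 161.3 and 76.8 in cDC, and 136.6 and 78.3 in PDC, with overlap and a log2 difference of opposite sign, -0.99 ± 0.52 in IKDC against cDC (limma, adjusted p = 0.343).

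The partners of HSP60 did not pass in any comparison. Hspe1, the HSP10 lid, gave 751.3 and 885.8 in IKDC, 790.0 and 505.2 in cDC, and 776.1 and 873.3 in PDC, with overlap and a log2 difference of 0.36 ± 0.29 in IKDC against cDC (limma, adjusted p = 0.562). Hspa9, the mitochondrial HSP70, gave 1122.1 and 1049.1 in IKDC, 575.3 and 772.5 in cDC, and 924.3 and 874.1 in PDC. Its samples did not overlap between IKDC and cDC, and the log2 difference of 0.69 ± 0.27 did not pass (limma, adjusted p = 0.187). A second Hspa9 probe set, on U74C, gave 454.3 and 127 in IKDC, 187.5 and 142.7 in cDC, and 359 and 709.8 in PDC. With that probe set IKDC and cDC overlapped. Hspd1 and Hspe1 are neighbours that run in opposite directions from a shared promoter: the Hspe1 window and 1 Hspd1 window overlap by 285 bases. The 250 bases before the Hspd1 start, chr1:55087933-55088182 on the minus strand, are shown because they hold both matches of 3 units, which overlap and are in capitals.
Hspd1: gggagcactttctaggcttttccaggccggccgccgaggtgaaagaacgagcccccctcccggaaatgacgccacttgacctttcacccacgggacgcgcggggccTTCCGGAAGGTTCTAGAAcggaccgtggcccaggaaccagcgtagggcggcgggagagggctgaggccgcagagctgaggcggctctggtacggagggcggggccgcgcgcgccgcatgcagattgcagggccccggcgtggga
The matches start 144 and 139 bases before the Hspd1 start, and the same bases read on the plus strand start 89 and 84 bases before that of Hspe1.

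Beside the higher Hspd1 signal, red cell markers were also higher in IKDC: 4 of 6 tested erythroid markers were higher in IKDC and 3 of 6 in PDC than in cDC, and their summed signals were 14802 and 17626.3 in IKDC, 1169.1 and 2069.4 in cDC, and 23036.1 and 10004.2 in PDC. Hba-a1 alone gave 12059.9 and 13455.5 of the IKDC sums, 515.8 and 1348.3 of the cDC sums, and 21120.7 and 8068 of the PDC sums. Some erythroid values were under 60, such as Alas2 at 31.4 in cDC replicate 1 and Epb42 at 7.8 in IKDC replicate 1. The part of red cell RNA in the Hspd1 signal was not tested.

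**Figure D4:**
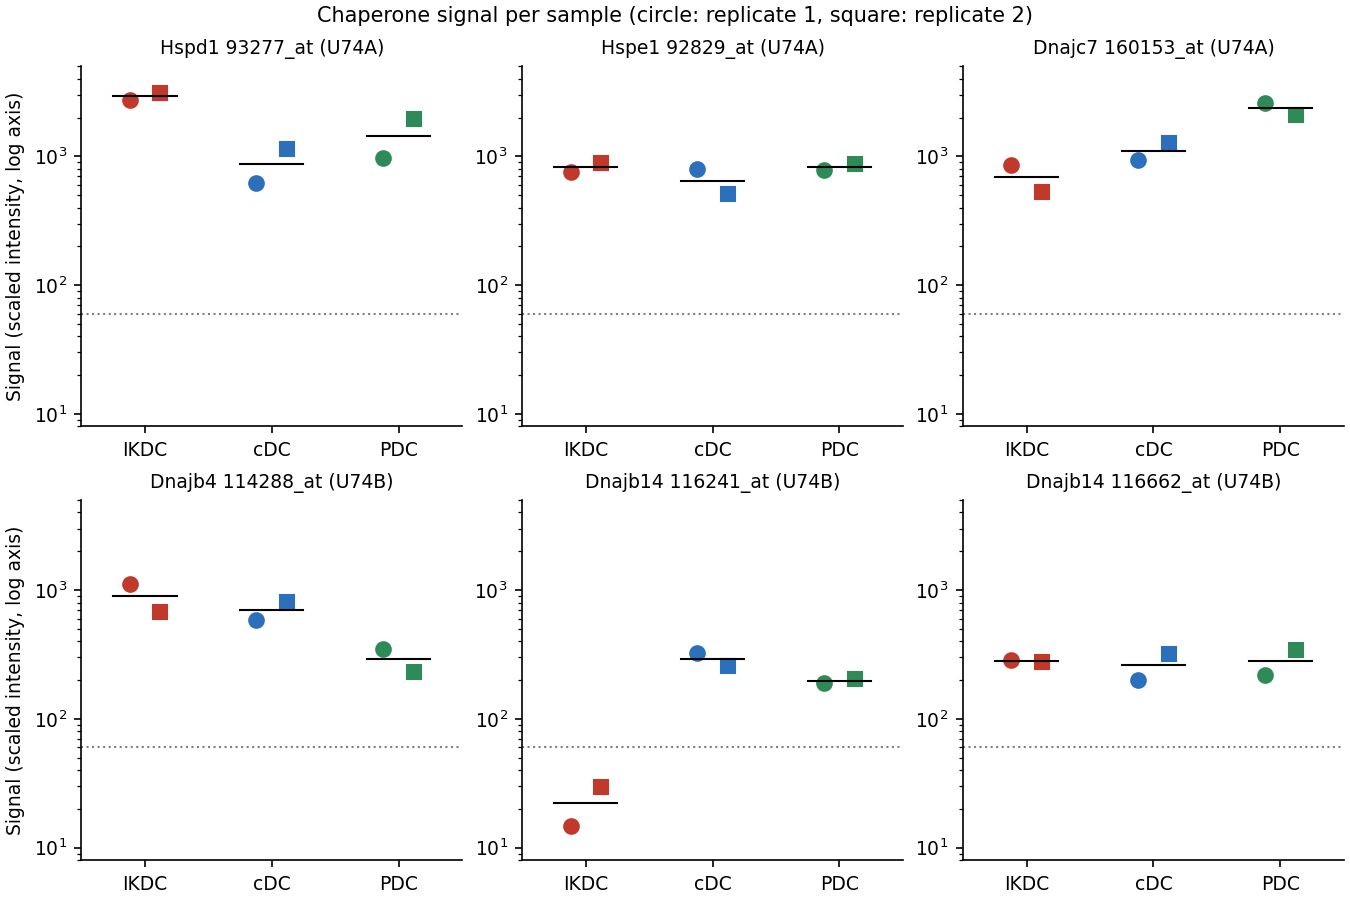
Signal (vertical log axis, scaled intensity) in each sample of IKDC, cDC and PDC (horizontal axis) for chaperone probe sets that passed the test and for others named in the panel titles; circles are replicate 1, squares replicate 2, horizontal bars the mean of both samples and the dotted line a signal of 60. Hspd1 is highest in both IKDC samples (2759.4 and 3120.4), and Dnajc7 in both PDC samples (2607.0 and 2104.4).

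Among the J proteins of class A, which resemble bacterial DnaJ most closely, none of the 5 tested probe sets passed. Dnaja1, a main cytosolic HSP70 partner, gave 871.1 and 852.9 in IKDC, 673.2 and 695.7 in cDC, and 589.7 and 835.5 in PDC. The IKDC samples were the highest, with a log2 difference of 0.33 ± 0.27 against cDC (limma, adjusted p = 0.578). Dnaja4 gave 485.3 and 231.2 in IKDC, 156.6 and 127.9 in cDC, and 163.6 and 137.7 in PDC. A second probe set gave 200.6 and 161.7 in IKDC, 23.5 and 83.8 in cDC, and 34.8 and 76.0 in PDC. Both IKDC samples were the highest for both probe sets, with log2 differences of 1.16 and 1.64 against cDC (limma, adjusted p = 0.136 and 0.145). The signals of Dnaja2 lay between 117.8 and 189.8 and those of Dnaja3, which acts in mitochondria, between 169.7 and 245.3.

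Class B held the members with the lowest adjusted p, but probe sets of a gene disagreed. Dnajb14, anchored in the membrane of the endoplasmic reticulum with its J domain in the cytosol, gave 14.8 and 29.5 in IKDC, 324.2 and 255.8 in cDC, and 188.7 and 204.0 in PDC with 1 probe set on U74B. The IKDC samples lay far under all others. The log2 difference was -3.02 ± 0.39 in IKDC against cDC (limma, adjusted p = 0.00161) and -2.50 ± 0.39 in IKDC against PDC (limma, adjusted p = 0.00532). Taking a signal of 60 as the floor, IKDC was at least 4.80-fold lower than cDC and at least 3.27-fold lower than PDC. The floor is a weak bound on U74B, where bacterial control probe sets that had no target reached 122.7. The call against each population was kept in every alternative run, with adjusted p from 0.00139 to 0.0332 against cDC and from 0.00625 to 0.0371 against PDC (limma).

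The other tested Dnajb14 probe sets did not pass in any comparison. That on U74C gave 19.0 and 29.2 in IKDC, 180.5 and 134.0 in cDC, and 125.0 and 192.9 in PDC, with log2 differences of -2.11 ± 0.57 in IKDC against cDC (limma, adjusted p = 0.0600) and against PDC (limma, adjusted p = 0.0726). Without an intensity trend the first passed (limma, adjusted p = 0.0468). Another gave 57.5 and 12.9 in IKDC, 88.2 and 92.3 in cDC, and 140.8 and 97.4 in PDC, again with both IKDC samples lowest. The brightest gave 287.4 and 278.4 in IKDC, 201.3 and 318.6 in cDC, and 217.9 and 344.7 in PDC, where the populations overlapped and the log2 difference against cDC was 0.15 ± 0.34 (limma, adjusted p = 0.866). Which transcript part each probe set reads was not analysed here, so the Dnajb14 difference holds for probe sets and not for the gene.

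Dnajb4, a close relative of the classical HSP40 Dnajb1, was lower in PDC than in IKDC with both of its tested probe sets. On U74B it gave 1106.3 and 680.7 in IKDC, 582.1 and 808.7 in cDC, and 348.9 and 229.3 in PDC. On U74A it gave 276.8 and 106.8 in IKDC, 138.6 and 130.3 in cDC, and 37.3 and 41.7 in PDC. Both PDC samples were the lowest on both arrays, and IKDC and cDC overlapped. IKDC exceeded PDC by a log2 difference of 1.56 ± 0.32 on U74B (limma, adjusted p = 0.0245) and 1.77 ± 0.41 on U74A (limma, adjusted p = 0.0335), the latter at least 2.87-fold with 60 as the floor. PDC against cDC did not pass, at -1.23 ± 0.32 on U74B (limma, adjusted p = 0.0801) and -1.44 ± 0.41 on U74A (limma, adjusted p = 0.0975).

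The Dnajb4 calls were not firm. On U74B the call ended without IKDC replicate 1 (1.22, limma, adjusted p = 0.205), without PDC replicate 2 (1.28, limma, adjusted p = 0.105) and without an intensity trend (limma, adjusted p = 0.111). On U74A it ended without IKDC replicate 1 (1.15, limma, adjusted p = 0.431), cDC replicate 1 or 2 (limma, adjusted p = 0.0610 and 0.0635) and PDC replicate 1 or 2 (limma, adjusted p = 0.106 and 0.0778). It also ended with no filter on low signals, after quantile normalization, with only IKDC and PDC in the fit and without a trend (limma, adjusted p = 0.0599, 0.0521, 0.0652 and 0.0568). The direction was the same in all of these.

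Dnajb1 itself, which heat shock raises strongly, gave 180.7 and 221.1 in IKDC, 141.9 and 158.8 in cDC, and 160.6 and 190.1 in PDC on U74A. A second probe set, on U74C, gave 257.9 and 179.8 in IKDC, 332.7 and 236.6 in cDC, and 379.1 and 133.7 in PDC. On U74A its IKDC samples lay above its cDC samples and replicate 2 was the higher sample in each population, while on U74C replicate 1 was the higher one in each. No difference between populations passed on either array. Dnajb1 lay outside the naming rule and was added after its values were seen, because it is heat-inducible. Dnajb6, which keeps proteins from aggregating, gave 1234.9 and 904.4 in IKDC, 865.7 and 976.7 in cDC, and 783.9 and 956.5 in PDC, with overlap throughout. Dnajb8 gave 585.2 and 584.6 in IKDC, 784.5 and 1068.1 in cDC, and 566.7 and 565.5 in PDC on U74C. Both cDC samples were highest there without passing (limma, adjusted p = 0.271 against IKDC and 0.306 against PDC). Its U74A probe set was under 60 in every sample, at most 49.1, and was not tested. Dnajb2 had signals from 279.5 to 478.2 with its brightest probe set. None of the remaining DnaJB genes, Dnajb3, Dnajb12 and Dnajb13, passed.

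In class C, the most varied J proteins, 1 of 35 tested probe sets passed in 1 comparison. Dnajc7, also known as TPR2, carries repeats that bind the ends of both HSP70 and HSP90 and passes clients between them. It gave 849.3 and 529.7 in IKDC, 934.4 and 1262.1 in cDC, and 2607.0 and 2104.4 in PDC. The 3 populations did not overlap and stood in the order IKDC, cDC, PDC. Dnajc7 was lower in IKDC than in PDC by a log2 difference of -1.78 ± 0.31 (limma, adjusted p = 0.00581), and the call ended without IKDC replicate 2 (-1.45, limma, adjusted p = 0.0948). PDC lay above cDC by 1.10 ± 0.31 without passing (limma, adjusted p = 0.0868), and IKDC against cDC was at -0.68 ± 0.31 (limma, adjusted p = 0.258). In this fit neither difference between neighbours in the order passed.

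Other class C members did not pass in any comparison. Dnajc8, which travels with the spliceosome, gave 2403.6 and 1929.5 in IKDC, 2722.3 and 3831.1 in cDC, and 1938.1 and 1828.9 in PDC with its brightest probe set. Both cDC samples were highest there (limma, adjusted p = 0.292 against IKDC and 0.203 against PDC). Its second probe set gave 642.9 and 909.4 in IKDC, 481.3 and 728.7 in cDC, and 353.3 and 420.6 in PDC. With that probe set IKDC and cDC overlapped and both PDC samples were lowest. Dnajc9, a histone chaperone, gave 682.4 and 766.2 in IKDC, 262.1 and 502.4 in cDC, and 424.2 and 692.9 in PDC. Its IKDC samples lay above its cDC samples, at a log2 difference of 0.96 ± 0.35 (limma, adjusted p = 0.162). Dnajc5, the cysteine string protein of secretory vesicles, gave 947.3 and 1220.4 in IKDC, 1035.7 and 1309.7 in cDC, and 869.7 and 908.4 in PDC, and its 5 tested probe sets did not pass. Dnajc18, chosen after its values were seen, gave 29.5 and 21.0 in IKDC, 12.8 and 26.9 in cDC, and 121.9 and 96.6 in PDC. Only PDC reached 60 there, at least 1.81-fold above cDC with that floor, and the difference did not pass (limma, adjusted p = 0.135).

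No tested small heat shock protein passed in any comparison. Hspb1 (HSP25), the best known of them, gave 4.0 and 6.7 in IKDC, 26.3 and 34.9 in cDC, and 27.3 and 21.2 in PDC on U74A, under the minimum of 60, and was not tested. Hspb8, which works with the co-chaperone Bag3 in clearing misfolded proteins, gave 28.1 and 83.9 in IKDC, 206.5 and 107.0 in cDC, and 80.2 and 69.5 in PDC. Both cDC samples were highest, and the log2 difference of -1.32 ± 0.46 in IKDC did not pass (limma, adjusted p = 0.138). Hspb6 had signals from 165.9 to 222.1, Hspb7 from 115.0 to 221.8 and Hspb2 from 68.2 to 296.0 with its brightest probe set. The class had 6 tested probe sets.

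The genes without a tested probe set were Dnajb5, Dnajb7, Dnajc11, Dnajc22, Hspb1, Hspb9 and Hspb11, with at most 1 of 6 samples at 60 or more for a probe set. Of the 57 tested genes, 24 had several tested probe sets. All probe sets of a gene had log2 differences of 1 sign for 11 of these 24 in IKDC against cDC, 10 in PDC against cDC and 9 in IKDC against PDC. Hspd1 and Dnajb14 were among the genes with both signs in IKDC against cDC. Only signs were compared, differences near 0 included, and the share among all genes with several probe sets was not computed. The counts therefore do not set the chaperones apart.

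Other folding factors were taken as a list of 57 genes, of which 50 were tested, among them the Bag proteins, HSP90 co-chaperones, members of the CCT and prefoldin complexes and mitochondrial factors. Of the heat shock factors only Hsf2 was tested, and Hsf1 was not. In IKDC against cDC, 3 of 50 passed (6%, near the 5.6% of all probe sets), all higher, with a median log2 difference of 0.16 over the list and -0.01 over all tested probe sets. Fkbp5, an HSP90 co-chaperone of steroid receptors, gave 227.6 and 333.1 in IKDC, 56.8 and 93.2 in cDC, and 165.4 and 248.2 in PDC, a log2 difference of 1.71 ± 0.35 in IKDC against cDC (limma, adjusted p = 0.0147). Ahsa2, a relative of the HSP90 activator Ahsa1, gave 911.2 and 1046.7 in IKDC, 479.9 and 407.6 in cDC, and 774.2 and 668.5 in PDC, a log2 difference of 1.11 ± 0.24 (limma, adjusted p = 0.0242). Unc45a, a myosin chaperone that binds HSP90, gave 147.5 and 123.9 in IKDC, 30.3 and 51.6 in cDC, and 161.2 and 107.3 in PDC, a log2 difference of 1.43 ± 0.37 (limma, adjusted p = 0.0444) and at least 2.25-fold with 60 as the floor. For all of these, both IKDC samples and both PDC samples lay above both cDC samples, and only IKDC against cDC passed.

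In PDC against cDC, 1 of the 50 passed (2%, beside 3.65% of all), with a median of 0.23, and in IKDC against PDC 1 passed (2%, beside 4.45%), with a median of 0.08. Both were Serpinh1, the collagen chaperone HSP47, which gave 9.7 and 10.5 in IKDC, 12.2 and 9.5 in cDC, and 93.9 and 108.6 in PDC. Serpinh1 entered the test through its PDC samples alone, the only ones to reach 60, and with that floor PDC was at least 1.68-fold higher than cDC (limma, adjusted p = 0.0461) and than IKDC (limma, adjusted p = 0.0370). The count in IKDC against cDC was 0 without IKDC replicate 1, IKDC replicate 2 or cDC replicate 1, and 5 without PDC replicate 1 or 2. Both Serpinh1 calls ended when any sample other than cDC replicate 2 was left out. Of the 5 chaperones of the endoplasmic reticulum left out, Hsp90b1 passed in PDC against cDC, with 2980.7 and 3257.3 against 1248 and 1212.1 (log2 difference 1.33 ± 0.28, limma, adjusted p = 0.0218), and 4 did not pass in any comparison.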

How the data were processed

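Signals of 18 arrays (6 samples, 3 array types) were analysed. The deposited intensities are linear values that the authors made with GCOS 1.1.1, per the labels, with global scaling of each array to 150. MAS5 is named in the submitters' processing notes. RNA was amplified in 2 rounds, per the labels' protocols, which shortens transcripts towards their 3' end. Scaling assumes equal total signal in all samples.

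From these, log2(signal + 16) was computed, which understates changes of dim genes. Probe sets reaching a signal of 60 on 2 or more of the 6 arrays entered the model, which was run with limma 3.58.1 (R 4.3.3, lmFit, eBayes with intensity trend, 3 populations in 1 model, 3 residual degrees of freedom, array types apart). P-values are two-sided and were adjusted by Benjamini-Hochberg over all 23285, with a threshold of 0.05. The scripts were tested on simulated data. Control probe sets (198) were left out of the test. Another 3 probe sets with several symbols, including a symbol starting with Dnaj or Hsp, were not taken as members but could enter the test. Platform annotation names the genes. An "at least" fold sets the geometric mean of the brighter group over a signal of 60, where both samples of the dimmer group were under 60. The gap between samples is replicate 2 minus replicate 1 in log2(signal + 16), ranked by size within the array type.

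The naming rule takes each gene with a passing probe set, all tested HSP90, HSP70, HSP110, HSP60 and HSP10 genes, and the 4 brightest genes of each remaining class of heat shock and J proteins. A gene's brightest tested probe set stands for it. Members, lists and tests were chosen with earlier results of these data known. Promoters from RefSeq (GRCm38.p6) were searched, with no entry for 12 of the 64 genes. Alternatives changed the pseudocount, filter, scaling, model and samples. Depth does not apply to arrays, and their number limits the precision.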

Additional observations from a re-analysis of the deposited data

How the results depend on the processing

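Counts of passing chaperone probe sets were 2 in IKDC against cDC, 0 in PDC against cDC and 4 in IKDC against PDC, those of the co-chaperones 3, 1 and 1, and those of the immediate early genes 7, 11 and 5, in the same order (limma). With a pseudocount of 1, and with a signal of 200 as the minimum, the co-chaperones gave 0 in PDC against cDC and 0 in IKDC against PDC. With median centring they gave 0 in IKDC against PDC, and the median log2 difference of all probe sets in IKDC against cDC moved from -0.01 to 0.11. Quantile normalization gave 3 immediate early genes in IKDC against PDC. With only the 2 populations compared in the fit, 5 co-chaperones passed in IKDC against cDC and 1 chaperone in PDC against cDC. Without a trend, 1 co-chaperone passed in IKDC against cDC, and 2 chaperones and 3 immediate early genes in IKDC against PDC. With p-values adjusted within each array type, 5 co-chaperones passed in IKDC against cDC and 3 in PDC against cDC. The cause of these changes was not tested.

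Leaving out 1 sample at a time gave 1 to 3 chaperones in IKDC against cDC, 0 to 1 in PDC against cDC and 2 to 3 in IKDC against PDC, beside 2.55% to 7.11%, 1.4% to 3.09% and 2.12% to 3.73% of all probe sets. The co-chaperones gave 0 to 5, 0 to 1 and 0 to 1, and the immediate early genes 1 to 7, 3 to 12 and 3 to 5. The population left with 1 sample was assumed to vary like the others.

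The titles number the samples, but same-numbered samples deviated together only in part (correlations of -0.0862 to 0.235 over pairs of populations and array types), so the numbers were not taken as pairs. With a replicate block, 5 chaperones passed in IKDC against cDC (1 higher, 4 lower; 4.95%, beside 7.09% of all probe sets), 4 in PDC against cDC (1 higher, 3 lower; 3.96%, beside 4.53%) and 6 in IKDC against PDC (5.94%, beside 5.25%), and 3 co-chaperones in PDC against cDC. Hspa1a and Hspa1b were then among the lower ones, at limma adjusted p of 0.00516 and 0.0351 in IKDC and 0.00111 and 0.00381 in PDC against cDC. Calls were also gained for Hspa1l in IKDC against cDC and against PDC (limma, adjusted p = 0.0122 and 0.0316), Hspd1 in IKDC against PDC (limma, adjusted p = 0.0252), and Dnajc7 and the U74A probe set of Dnajb4 in PDC against cDC (limma, adjusted p = 0.0365 and 0.0382).

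Of 1845 alternative values for the named genes, none reversed a called direction, 17 lost a call and 23 gained one, and 76 uncalled values changed sign. The number of arrays and the 60 floor, weak on U74B and U74C, limit what dim genes can show.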
